A study of Mus musculus with 4 samples.

Results

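The GIMAP genes encode GTPases of immunity-associated proteins, a family made mainly by lymphocytes. The members were taken by symbol from the deposited table of read counts, which held 8 of them (Gimap1, Gimap3, Gimap4, Gimap5, Gimap6, Gimap7, Gimap8 and Gimap9) among its 27179 rows. They were followed in type 2 innate lymphoid cells (ILC2s), the lymphocytes that make IL-5 and IL-13 in mucosal tissue, from the large intestine of C57BL/6 mice. The study asked what deoxycholic acid (DCA), a bile acid that gut bacteria make from a primary bile acid, does to these cells.

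Both groups came from wild-type mice, and the methods give an age of 6 to 8 weeks for C57BL/6J animals. Elsewhere the methods give a range with a higher upper age for the mice of the experiments. They name C57BL/6J animals of both sexes and, further on, only males. The ILC2s were sorted from the lamina propria as CD45.2+ Lin- CD127+ KLRG1+ cells and expanded for 5 days with IL-33 and IL-25 and with IL-7 and IL-2, each at 10 ng/mL. One group then received DCA at 100 μM and the other, labelled control, received vehicle, for 16 h by the description deposited with the series and for 24 h by the methods. Each group had 2 RNA-Seq libraries made from total RNA, and nothing in the labels says that these were separate cultures or animals, so the p-values measure only the spread between these libraries.

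The vehicle libraries held 35838342 and 26564059 counts and DCA replicate 1 held 32102232. DCA replicate 2 stood apart with 244165712 counts and with 15592 genes detected, against 12302 to 13419 in the other libraries. Levels are given in CPM, which are counts scaled to the size of each library with TMM factors. Of 11 ILC2 markers, 11 passed the filter of a mean of 1 CPM over the libraries, and the lowest value in any library was 31.5 CPM (Il17rb, DCA replicate 2). They summed to between 12600 and 17200 CPM, of which Il5 alone gave 7710 to 12400 CPM. Il7r, which encodes CD127, and Klrg1 belong to the markers used for sorting. Among markers of other cells, Cd4, Cd8a, Pax5, Ncr1, Kdr, Vwf and Csf1r had no count in any library. Others were detected in all 4, namely Cd28 (67.3 to 150 CPM), Cd79b (37.4 to 55.0 CPM) and Cd3g (10.5 to 25.5 CPM). So were Cd68 (7.30 to 24.2 CPM), Pecam1 (3.71 to 11.4 CPM), Epcam (3.99 to 7.87 CPM) and Krt18 (0.218 to 6.4 CPM).

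GIMAP proteins bind GTP through an AIG1 domain, related to that of septins, and many sit on the membranes of intracellular organelles. They are known for keeping lymphocytes alive: loss of Gimap5 in mice and rats depletes T cells, and Gimap1 is needed for the maintenance of mature T and B cells. Gimap3 is the close relative of Gimap5, Gimap6 takes part in autophagy, and Gimap4 has been linked to the death of T cells. Gimap7 can hydrolyse GTP as a dimer, Gimap8 carries several GTPase domains in 1 protein, and Gimap9 is among the less studied members.

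The 8 genes lie side by side on mouse chromosome 6, within 123666 bases of GRCm38.p6. In order they are Gimap8 (chr6:48647186-48660875), Gimap9 (chr6:48676121-48679116), Gimap4 (chr6:48684578-48692062), Gimap6 (chr6:48701583-48708244), Gimap7 (chr6:48718621-48724636), Gimap1 (chr6:48739047-48743795), Gimap5 (chr6:48746197-48754200) and Gimap3 (chr6:48764464-48770851). Gimap6 and Gimap3 are on the minus strand and the other members on the plus strand. The shortest gap, of 2401 bases, separates Gimap1 from Gimap5.

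The shared feature of the family is the GTP-binding loop at the start of the domain. Its coding sequence is shown because it differs between all members but Gimap3 and Gimap5, and so shows which pair is most alike. Each line gives a stretch of the GENCODE coding sequence, 5′ to 3′ on the coding strand, with the 8 codons of the loop in capitals. These 24 bases are exonic, and 11 of them are identical in all 8 genes when loop 1 of Gimap8 is used.
Gimap8, loop 1: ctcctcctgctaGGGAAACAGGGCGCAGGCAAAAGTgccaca
Gimap8, loop 2: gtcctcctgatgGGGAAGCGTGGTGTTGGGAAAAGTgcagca
Gimap8, loop 3: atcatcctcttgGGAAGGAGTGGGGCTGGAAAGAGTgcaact
Gimap9: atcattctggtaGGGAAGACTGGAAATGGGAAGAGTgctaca
Gimap4: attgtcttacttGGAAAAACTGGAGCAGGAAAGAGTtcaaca
Gimap6: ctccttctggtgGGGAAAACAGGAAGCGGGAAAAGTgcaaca
Gimap7: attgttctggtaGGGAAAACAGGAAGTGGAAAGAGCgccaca
Gimap1: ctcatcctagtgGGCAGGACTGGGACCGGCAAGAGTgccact
Gimap5: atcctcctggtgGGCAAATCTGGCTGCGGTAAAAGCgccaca
Gimap3: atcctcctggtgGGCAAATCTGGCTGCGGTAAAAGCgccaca

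The loops of Gimap3 and Gimap5 were the same in all 24 bases. Gimap8 carried 3 loops in a coding sequence of 2064 bases, and each of the other members carried 1 in 873 to 984 bases. Of the aligned coding bases, 90.4% were identical between Gimap3 and Gimap5, and between 55.8% and 67.9% in the other pairs among the 7 single-loop members. Counted over the whole of the shorter coding sequence, these shares were 89.6% for Gimap3 and Gimap5 and 48.9% to 65.5% for the other pairs. The longest coding run that Gimap3 and Gimap5 share exactly is 140 bases (positions 175 to 314 of the Gimap3 coding sequence and 187 to 326 of that of Gimap5). It is shown as the longest, though not the only, coding stretch where the pair cannot be told apart by sequence.
Gimap3 and Gimap5: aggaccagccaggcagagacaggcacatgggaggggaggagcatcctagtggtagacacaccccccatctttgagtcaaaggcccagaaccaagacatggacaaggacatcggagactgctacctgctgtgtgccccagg

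No other pair of members shared a coding run longer than 17 bases. Of all 50-base windows in the transcripts, 9.06% of those of Gimap3 also occurred in Gimap5 and 9.98% of those of Gimap5 occurred in Gimap3. The methods give paired reads of 150 bases, and no window of that length was shared between the transcripts of Gimap3 and Gimap5 (0 of 1996 and 0 of 1804). How shorter trimmed reads and shared reads were counted is not given in the sources used here.

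Every GIMAP gene was expressed in every library, and all 8 passed the filter. Gimap3 had the highest CPM of the family, at 516 and 470 CPM under vehicle against 608 and 463 CPM under DCA. That placed it between percentiles 96.8 and 98.0 of the 11179 genes tested. Gimap8 had the lowest CPM, from 17.0 to 42.9, and lay between percentiles 42.1 and 62.8. The other 6 members lay between percentiles 81.0 and 93.7 in each library.

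Levels of different genes were compared per kilobase of the longest coding transcript. On this scale Gimap3 reached 241, 219, 283 and 216 CPM per kilobase in vehicle replicates 1 and 2 and DCA replicates 1 and 2, above every other member in each library. Gimap1 followed with 133, 106, 156 and 124 CPM per kilobase. Gimap4 had 98.1, 151, 84.6 and 75.0 CPM per kilobase, and so ranked second in vehicle replicate 2 and sixth in DCA replicate 2. The 4 members below it in mean level, Gimap7, Gimap9, Gimap5 and Gimap6, overlapped their neighbours in the order and together ranged from 55.3 to 98.1 CPM per kilobase. Gimap8 was at 10.3, 5.38, 5.81 and 13.6 CPM per kilobase, below all others in each library. Between neighbours in the order, only Gimap3 against Gimap1 and Gimap6 against Gimap8 did not overlap over the 4 libraries. With the union of all exons as the length, Gimap3 stayed first and Gimap8 last in each library, but Gimap4 and Gimap9 moved ahead of Gimap1 in the order of means. The place of Gimap6 depended most on the length used, 3179 bases for its longest coding transcript against 1594 for its main annotated one. On the latter it had 137, 110, 163 and 136 CPM per kilobase, above Gimap1 in each library, while Gimap3 stayed first and Gimap8 last.

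**Figure D1:**
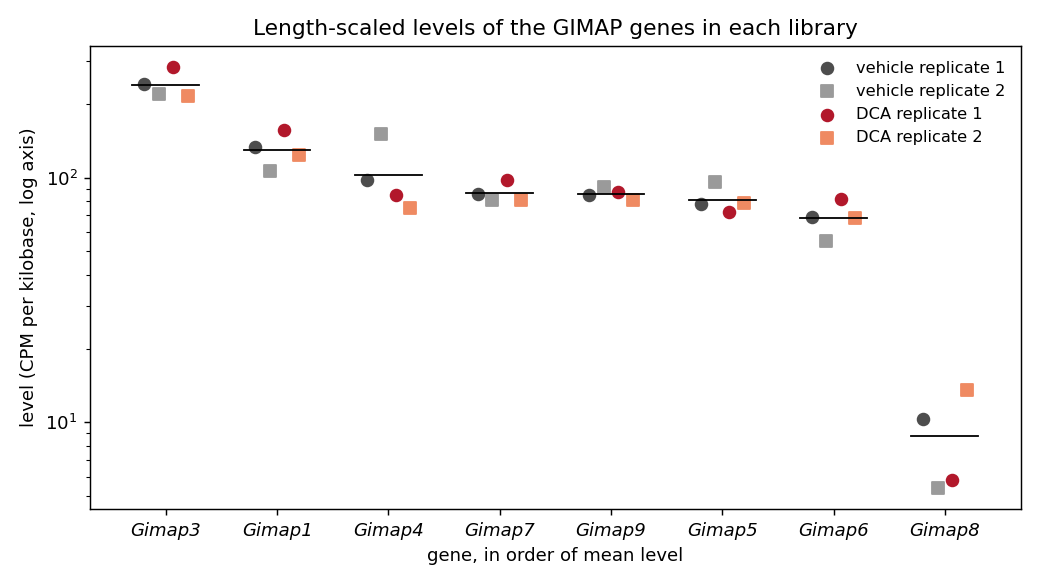
Level of each GIMAP gene in each library as CPM per kilobase of the longest coding transcript, on a log axis, with genes in order of mean level and horizontal lines at the mean of the 4 libraries. Gimap3 lies at 216 to 283 CPM per kilobase and Gimap8 at 5.38 to 13.6, with the other 6 genes between them.

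All 11179 genes entered the quasi-likelihood test of edgeR for DCA against vehicle. None of the 8 GIMAP genes passed an adjusted p of 0.05, beside 0% of all genes tested, and each had an adjusted p of 0.998, as did every other gene whose log2 fold change is given in the text. None reached an unadjusted p of 0.05 in edgeR or limma, beside 4.28% of all genes in edgeR. In DESeq2 1 did so (Gimap4), beside 788 of the 11179 genes. Both DCA libraries lay above both vehicle libraries for 0 members, beside 18.9% of all genes, and below both for 1 member, beside 14.5% of all genes. The libraries of the 2 treatments overlapped for the other 7. No exact permutation test of 2 against 2 libraries can go below a two-sided p of 0.333.

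Gimap4 was the member whose libraries did not overlap between treatments. It had 177 and 272 CPM under vehicle against 153 and 135 CPM under DCA, means of 224 ± 67.0 and 144 ± 12.3 (SD, n = 2 each). The vehicle libraries differed from each other by more than vehicle replicate 1 differed from DCA replicate 1. The log2 fold change was -0.64, the 95% interval from limma ran from -1.25 to 0.03, and the exact permutation p was 0.333. The standard error was 0.320. For this and the other genes it comes from the spread of log2(CPM + 1) between that gene's own libraries, not from the edgeR fit. In DESeq2 the p before adjustment was 0.0288 and after it 0.594. The size of the difference rested on vehicle replicate 2, without which the log2 fold change was -0.30 (adjusted p = 0.753), and without vehicle replicate 1 it was -0.94 (adjusted p = 0.231).

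Gimap6 and Gimap1 had higher means with DCA, though not beyond the spread between libraries. Gimap6, with its role in autophagy, had 219 and 176 CPM under vehicle against 260 and 216 CPM under DCA. Its log2 fold change was 0.27 with a standard error of 0.205, and the lower DCA library lay below the higher vehicle library. Gimap1 had 199 and 159 CPM under vehicle against 232 and 185 CPM under DCA. Its log2 fold change was 0.22 with a standard error of 0.232, with the same kind of overlap. The 95% intervals from limma ran from -0.29 to 0.84 for Gimap6 and from -0.37 to 0.80 for Gimap1.

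Gimap5, a member whose loss depletes T cells in mice, had 152 and 187 CPM under vehicle against 141 and 154 CPM under DCA. Its log2 fold change was -0.20 with a standard error of 0.159 (limma 95% interval from -0.77 to 0.38). The upper DCA library lay just above the lower vehicle library. Its near copy Gimap3 had means of 493 ± 32.8 CPM under vehicle and 535 ± 102 CPM under DCA, a log2 fold change of 0.12 (SE 0.207, limma 95% interval from -0.42 to 0.63). The DCA libraries of Gimap3 enclosed both vehicle libraries. The ratio of Gimap3 counts to Gimap5 counts, taken within a library and so free of scaling, was 3.39 and 2.52 with vehicle and 4.31 and 3.01 with DCA. These ratios overlapped between treatments as well.

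Gimap9 and Gimap7 were the steadiest members. Gimap9 had 117 and 126 CPM under vehicle against 120 and 112 CPM under DCA, a log2 fold change of -0.07 (SE 0.0754, limma 95% interval from -0.65 to 0.52). Gimap7 had 108 and 102 CPM under vehicle against 125 and 103 CPM under DCA, a log2 fold change of 0.11 (SE 0.145, limma 95% interval from -0.51 to 0.71). These intervals leave room for a change of either sign, and the p-values do not show that the levels were equal.

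Gimap8, the member with 3 loops, varied most. It had 32.6 and 17.0 CPM under vehicle against 18.4 and 42.9 CPM under DCA, so that each treatment held a low and a high library. The log2 fold change was 0.31 with a standard error of 0.743, and the 95% interval from limma ran from -1.06 to 1.55. The highest value came from DCA replicate 2, the deepest library, without which the log2 fold change was -0.43 (adjusted p = 1.0). Its counts were 1194 and 446 under vehicle and 594 and 10305 under DCA.

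**Figure D2:**
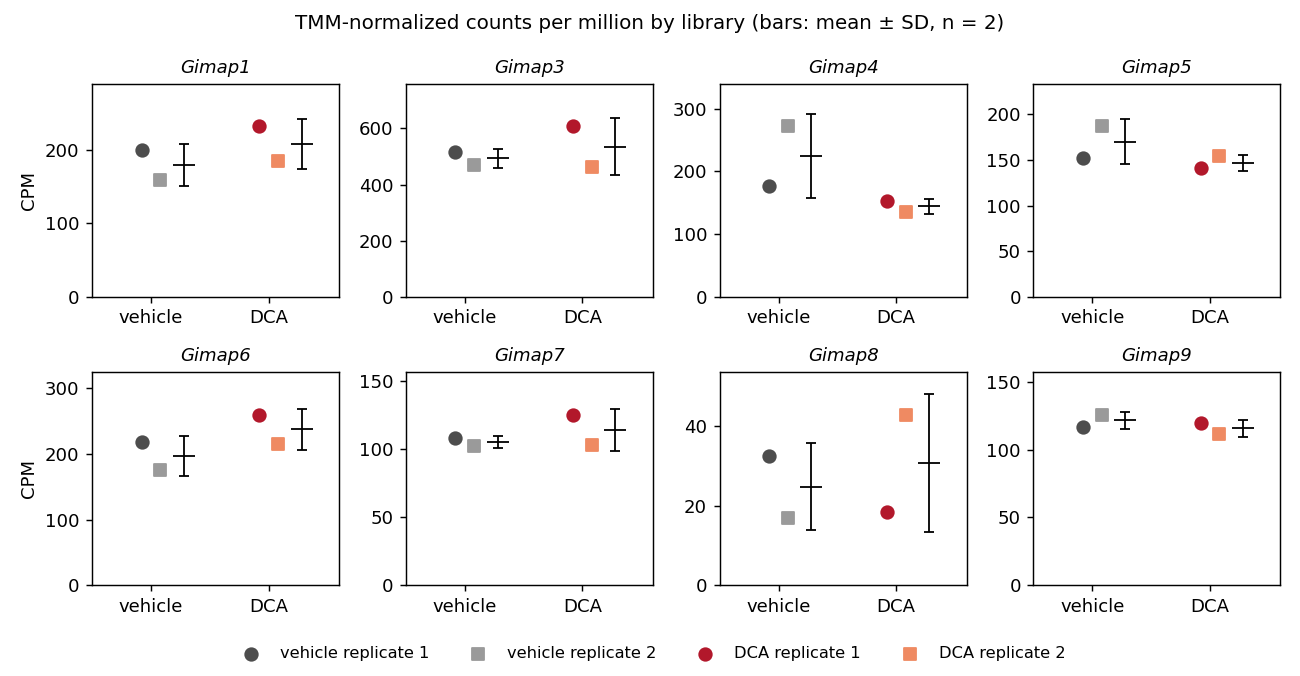
TMM-normalized CPM of each GIMAP gene in the 2 vehicle and the 2 DCA libraries, with bars at the mean ± SD (n = 2) and each axis starting at 0. The DCA libraries lie below both vehicle libraries for Gimap4 (153 and 135 against 177 and 272 CPM) and overlap them for the other 7 genes.

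**Figure D3:**
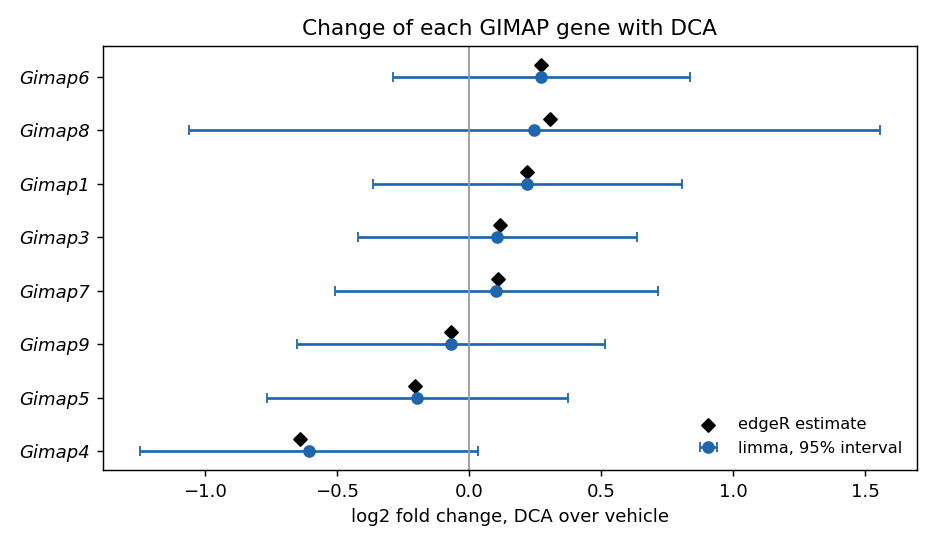
Log2 fold change of each GIMAP gene, DCA over vehicle, with diamonds for the edgeR estimate and circles with bars for the limma estimate and its 95% interval. All 8 intervals include 0, and that of Gimap8 is the widest, from -1.06 to 1.55.

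Of the 8 genes, 5 had a positive and 3 a negative log2 fold change, with a median of 0.11 beside 0.01 for all genes tested. In the median the members differed little between libraries of either kind. The highest library was 2.53 times the lowest for Gimap8 and 2.01 times for Gimap4. For the members, the log2 difference had a median size of 0.303 within vehicle, 0.272 within DCA and 0.208 between treatments. The values within a group compare single libraries, and the value between treatments compares group means, which vary less. Their sizes are therefore not comparable with each other. For the 5153 tested genes in the members' range of mean CPM (27.7 to 514) these medians were 0.406, 0.293 and 0.245. The lower end of that range was set by Gimap8, while every other member had group means of at least 105 CPM. These genes are thus no close match in level. Gimap4 and Gimap8 were the members with log2 fold changes of largest size.

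The summed level of the 8 genes was 1521 and 1508 CPM under vehicle against 1657 and 1409 CPM under DCA. The means were 1515 ± 9.25 and 1533 ± 175 CPM, a ratio of 1.01, and the DCA libraries lay on either side of the vehicle libraries. Without Gimap3 the sum was 1005, 1038, 1049 and 946.7 CPM in the same order. In raw counts, 55747, 39569, 53586 and 338197 counts fell on the family, which is 0.156%, 0.149%, 0.167% and 0.139% of each library.

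Gimap3 gave between 31.2% and 36.7% of the summed CPM in each library. The share of Gimap4 was 11.6% and 18.0% with vehicle and 9.21% and 9.60% with DCA, so that it gave the second largest share in vehicle replicate 2 and the fifth largest in DCA replicate 2. Gimap6 gave 14.4% and 11.7% with vehicle and 15.7% and 15.4% with DCA. The count ratio of Gimap4 to Gimap6 was therefore 0.809 and 1.54 with vehicle and 0.586 and 0.625 with DCA. The ratio of Gimap4 to Gimap9, the member that differed least, was 1.51 and 2.16 with vehicle and 1.27 and 1.21 with DCA, and neither ratio overlapped between treatments. These ratios were looked at after the values of Gimap4 were known and are given as a description.

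**Figure D4:**
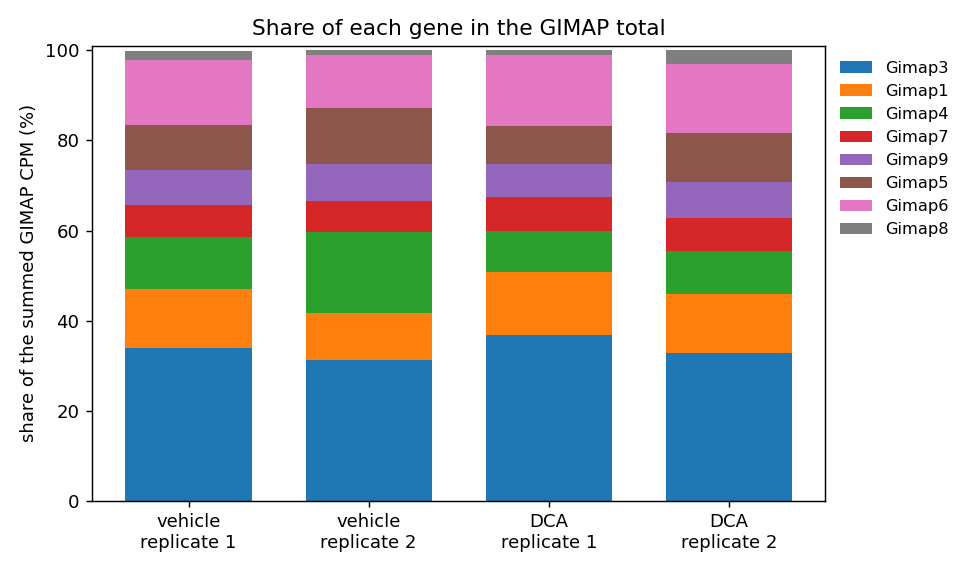
Share of each GIMAP gene in the summed GIMAP CPM of each library, in percent. Gimap3 gives 31.2% to 36.7% in each library, and Gimap4 gives 11.6% and 18.0% in the vehicle libraries and 9.21% and 9.60% in the DCA libraries.

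The table held 1 further row from the locus with a Gimap name, Gimap1os, a transcript on the strand opposite to Gimap1. It had 26.5 and 20.9 CPM under vehicle against 21.2 and 13.2 CPM under DCA, a log2 fold change of -0.46 (SE 0.360). Its exons overlap those of Gimap1 by 1107 bases, and 7.34% of the 50-base windows of Gimap1 match Gimap1os on the opposite strand. Another annotated gene, Gm28053, overlaps exons of Gimap1 by 198 bases, of Gimap5 by 153 and of Gimap7 by 81. The strand setting of the counting is not given in the sources used here, so reads of these genes may not be separated. Gimap1os had 0.133 and 0.132 counts for each Gimap1 count with vehicle and 0.0912 and 0.0718 with DCA, also a ratio looked at after the levels were known.

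The stretches of 250 bases before the starts of the GIMAP genes were searched on both strands for the core motifs of 3 classes of lymphocyte transcription factor. The RUNX motif TGTGGT was found before Gimap1, Gimap4 and Gimap7, that is in 3 of 9 member promoters (Gimap8 has 2 starts), beside 14% of 32851 promoters. The ETS motif GGAAGT was found before Gimap5 and Gimap6, in 2 of 9 beside 19.7%. The GATA motif AGATAA was found in 0 of 9 beside 9.99%, which says only that these letters are not in these windows. The promoter of Gimap4 is shown because Gimap4 was the member whose libraries did not overlap (RefSeq, GRCm38.p6, chr6:48684328-48684577, plus strand), with the RUNX motif, which reads as its reverse complement here, in capitals.
Gimap4 promoter: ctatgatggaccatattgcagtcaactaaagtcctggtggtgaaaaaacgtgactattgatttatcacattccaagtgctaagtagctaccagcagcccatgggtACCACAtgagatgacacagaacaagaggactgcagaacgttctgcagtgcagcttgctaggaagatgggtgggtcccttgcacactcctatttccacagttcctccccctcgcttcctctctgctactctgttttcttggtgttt

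The factors of these classes were expressed, and none of the 11 lymphocyte transcription factor genes tested (of 12 listed) reached an unadjusted p of 0.05 in edgeR. Their median log2 fold change was -0.10, with 4 higher and 7 lower. Gata3, the defining factor of ILC2s, had 838 and 655 CPM under vehicle against 599 and 825 CPM under DCA. Ets1 had 185 and 262 CPM under vehicle against 246 and 272 CPM under DCA. Ikzf3, an Ikaros family factor, had 151 and 166 CPM under vehicle against 168 and 112 CPM under DCA, and these libraries overlapped as well. The libraries of Runx1, Runx2 and Runx3 also overlapped, at 19.0 to 85.3 CPM. Both DCA libraries lay below both vehicle libraries for 1 of the 11 (Cbfb), beside 14.5% of all genes. They lay above both for 0, beside 18.9%. Cbfb had 174 and 90.3 CPM under vehicle against 85.4 and 85.2 CPM under DCA, a log2 fold change of -0.63 (SE 0.470).

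Genes beside the cluster were expressed at much lower levels than the cluster itself. Within 250000 bases of its outer ends RefSeq lists 37 other genes, of which 18 were in the table, 13 had at least 1 count and 9 were tested. The highest mean among them was that of AI854703, a transcribed pseudogene, with 11.6 ± 3.54 CPM under vehicle and 13.2 ± 3.04 CPM under DCA, below the mean of every GIMAP gene. None of the 9 passed the adjusted test in edgeR, 5 were higher and 4 lower, and their median log2 fold change was 0.18.

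Of the 9 tested, 2 (Krba1 and Zfp467) reached an unadjusted p of 0.05 in edgeR, beside 4.28% of all genes. Both had almost no counts with vehicle. Krba1 had 14 and 0 counts under vehicle against 143 and 2695 under DCA (4.42 and 11.2 CPM under DCA). Zfp467, a zinc finger gene, had 2 and 0 counts under vehicle against 24 and 2739 under DCA (0.742 and 11.4 CPM under DCA). It was the neighbour that DESeq2 called at an adjusted p of 0.05, beside 127 of all 11179 genes. Zfp775, another zinc finger gene, had 19.3 and 12.9 CPM under vehicle against 5.50 and 4.33 CPM under DCA, a log2 fold change of -1.71. Tmem176a and Tmem176b, which encode related membrane proteins, had log2 fold changes of -1.44 and -0.02, and the libraries of both overlapped. Lrrc61 and Repin1 had no count in vehicle replicate 1 and 237 and 286 counts in vehicle replicate 2. Zfp862-ps had a log2 fold change of 0.88 with overlapping libraries. Sspo had 1 to 25 counts in each library. Atp6v0e2, Gm7932 and Svs1 had 138, 221 and 4 counts in DCA replicate 2 and none in the other 3 libraries. In DCA replicate 2, the deepest library, these counts were 0.575, 0.921 and 0.0167 CPM.

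**Figure D5:**
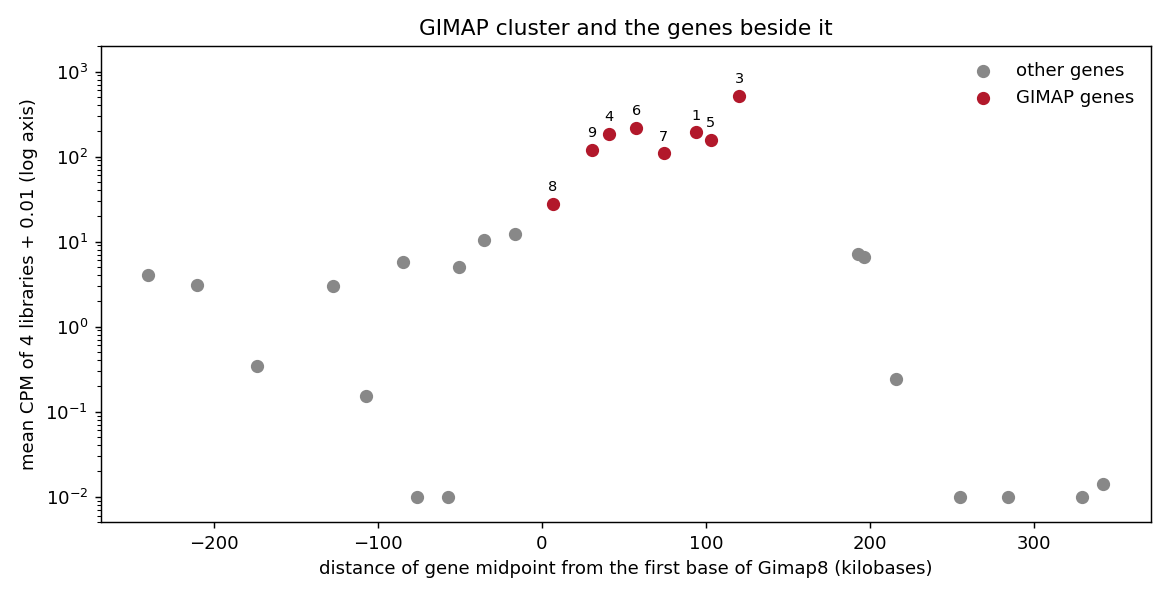
Mean CPM of 4 libraries, with 0.01 added and on a log axis, against the distance of each gene's midpoint from the first base of Gimap8 in kilobases, for the 8 GIMAP genes (red, numbered by member) and the 18 neighbouring genes in the table (grey). The GIMAP genes, at 27.7 to 514 CPM, all lie above the neighbouring genes on either side.

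The genes of proteins described as working with GIMAP proteins were all expressed. They include Bcl2 family members, the chaperone gene Hspa8, the autophagy gene Gabarapl2 and the kinase gene Gsk3b. All 7 were tested, 0 reached an unadjusted p of 0.05 in edgeR, 4 were higher and 3 lower, and the median log2 fold change was 0.16. Hspa8 had means of 4900 ± 592 CPM under vehicle and 4830 ± 130 CPM under DCA. The death effector Bax had 384 and 339 CPM under vehicle against 445 and 364 CPM under DCA, a log2 fold change of 0.16. Gabarapl2 had means of 148 ± 32.0 and 144 ± 2.79 CPM, a log2 fold change of -0.04.

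Of 21 genes linked to the quiescence of lymphocytes, 16 were tested, with a median log2 fold change of 0.05, 9 higher and 7 lower. None passed the adjusted test. Tsc2, an inhibitor of mTORC1, was the member of this list at an unadjusted p of 0.05 in edgeR, beside 4.28% of all genes. It had 14.5 and 9.53 CPM under vehicle against 35.2 and 26.9 CPM under DCA (log2 fold change 1.37). Il7r, the receptor for the survival cytokine IL-7, had 373 and 350 CPM under vehicle against 582 and 462 CPM under DCA, a log2 fold change of 0.53. Slfn2, which is needed for T cell quiescence, had 263 and 290 CPM under vehicle against 218 and 163 CPM under DCA, a log2 fold change of -0.54. Btg1, an antiproliferative gene, had the highest mean of the list and a log2 fold change of -0.18.

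Another set of GTPase genes, the interferon-inducible ones that act against intracellular pathogens, was set beside the GIMAP genes. Of 17 listed, 13 were tested, 5 were higher and 8 lower, and the median log2 fold change was -0.07. None passed the adjusted test. Ifi47 was the member of this list at an unadjusted p of 0.05 in edgeR, beside 4.28% of all genes. It had 165 and 197 CPM under vehicle against 110 and 113 CPM under DCA, a log2 fold change of -0.70. Gbp4 had 373 and 239 CPM under vehicle against 422 and 397 CPM under DCA, a log2 fold change of 0.42. Igtp had 277 and 196 CPM under vehicle against 269 and 200 CPM under DCA, a log2 fold change of -0.01.

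GIMAP genes are also expressed by T cells, B cells and endothelial cells, and the markers of these cells were summed in each library. The 9 T cell markers summed to 81.8 and 117 CPM under vehicle against 171 and 98.8 CPM under DCA, nearly all of it from Cd28 (67.3 to 150 CPM) and Cd3g (10.5 to 25.5 CPM). Of these 9 markers Cd4 and Cd8a had no count, and Cd3d and Cd3e stayed between 0 and 1.91 CPM. The 6 B cell markers summed to 55.0 and 47.1 CPM under vehicle against 37.7 and 44.6 CPM under DCA, almost wholly from Cd79b, and Pax5 had no count. The 7 endothelial markers summed to 12.2 and 3.77 CPM under vehicle against 3.71 and 6.64 CPM under DCA, mostly from Pecam1, with Kdr, Tek and Vwf at 0. In bulk samples fewer cells of a type and less RNA per cell cannot be told apart.

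The markers of other cells were low as well. Those of NK cells and ILC1s summed to at most 0.382 CPM with 4 of 6 at 0 in all libraries, and those of ILC3s to at most 1.48 CPM. The 6 epithelial markers summed to 7.73 to 13.5 CPM with 1 of 6 at 0. The 6 macrophage markers summed to 24.4 and 23.9 CPM under vehicle against 7.30 and 10.2 CPM under DCA, from Cd68 (log2 fold change -1.46), with 3 of 6 at 0. The macrophage sum, from Cd68, and the B cell sum, almost wholly from Cd79b, were lower in both DCA libraries. Gimap4 was so too, as were 14.5% of all genes tested. The part of such cells in the difference of Gimap4 was not tested.

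Of the 11 ILC2 markers, 6 were higher and 5 lower, and 3 reached an unadjusted p of 0.05 in edgeR, beside 4.28% of all genes, without passing the adjusted test. Both DCA libraries lay above both vehicle libraries for 3 of the 11, beside 18.9% of all genes, and below both for another 3, beside 14.5%. Il1rl1, the IL-33 receptor, had 831 and 875 CPM under vehicle against 598 and 534 CPM under DCA (log2 fold change -0.59). Klrg1 had 687 and 677 CPM under vehicle against 463 and 357 CPM under DCA (log2 fold change -0.73). It was the marker that DESeq2 called at an adjusted p of 0.05, beside 127 of all 11179 genes. Il2ra had a log2 fold change of 0.48. Il5, the marker with the highest mean, had means of 8280 ± 806 CPM under vehicle and 11200 ± 1700 CPM under DCA.

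The genes whose course over the 4 libraries was most like that of the summed GIMAP level were sought among 11171 other genes, by the root mean square difference of the centred log2(CPM + 1) values. The closest were Ube2j2 at 0.00515, Cggbp1 at 0.00852, Rab4b at 0.0204, Actg1 at 0.0206 and Pagr1a at 0.0225 on this log2 scale. All 5 have overlapping libraries, such as those of Ube2j2, which encodes a ubiquitin-conjugating enzyme of the endoplasmic reticulum, with 113 and 111 CPM under vehicle against 122 and 104 CPM under DCA. Within a difference of 0.1 there were 282 genes, or 2.52%, so a course this even was shared by many genes, and over 4 libraries likeness of this kind is a description.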

How the data were processed

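The submitters' processing notes name cutadapt 1.9, HISAT2 2.2.1 and the mm10 build. The deposited table holds whole-number counts per gene, although its name refers to FPKM. The counting tool, annotation and strand setting are not given in the sources used here. Of 27179 rows, 1275 had no symbol (0.137% to 0.173% of counts) and were kept under their identifiers.

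The counts were analysed with edgeR 4.0.16 in R 4.3.3 (TMM factors, two-sided quasi-likelihood tests, p-values adjusted by Benjamini-Hochberg), keeping the 11179 genes whose mean reached 1 CPM. Intervals come from limma 3.58.1 on log2(CPM + 1). Standard errors are those of the difference of group means on that scale, from the libraries of each gene alone. They come neither from limma nor from the edgeR fit, and can be too small where a gene's few libraries happen to lie close. DESeq2 1.42.0 was an alternative. Scripts were tested on simulated data. Positions and promoters are RefSeq on GRCm38.p6, and coding sequences are GENCODE transcripts on the same genome.

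The members, the gene lists and the tests were chosen with earlier results of these data known. The named genes are the members, other rows with a Gimap symbol, neighbours with at least 1 count, list genes with an unadjusted p under 0.05 or among the 3 highest in mean CPM, and the 5 nearest profiles. Runx1, Runx2, Runx3 and Cbfb are named besides, and were chosen after their values were known. For the lists of markers of other cells only the sums and main contributors are given. Protein sequences were not used here. Some marker genes are not reported here.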

Additional observations from a re-analysis of the deposited data

How the results depend on the processing

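No GIMAP gene passed an adjusted p of 0.05 under any of the 8 alternatives with all libraries (median-of-ratios or total-count scaling, no filter, a filter at 5 CPM, DESeq2, limma, the replicate block, DCA replicate 2 thinned to 32095090 counts) or with a library left out, and the smallest adjusted p was 0.231, for Gimap4. Over the alternatives with all libraries no member changed sign, and the log2 fold change of Gimap4 ran from -0.67 to -0.61, with unadjusted p from 0.0271 without a filter to 0.0608. Leaving out a library gave Gimap4 values from -0.94 to -0.30, Gimap8 from -0.43 to 0.83 (-0.0852 without vehicle replicate 2, -0.4329 without DCA replicate 2), Gimap7 from -0.0375 to 0.24 and Gimap3 from -0.0914 to 0.30, where the negative values of Gimap7 and Gimap3 came without DCA replicate 1. The summed level moved from a log2 ratio of 0.02 to between -0.10 (DCA replicate 1 left out) and 0.13 (DCA replicate 2 left out), and the median of the members to between -0.06 and 0.15. In these fits the lone library of a group is taken to vary like the other group. Over all genes, edgeR called 0 at an adjusted p of 0.05 (479 at an unadjusted p of 0.05, limma 0 and 519), 36 of 17706 without a filter, 127 with DESeq2, and 0 to 20 with a library left out, the 20 without vehicle replicate 1. The cause of these differences was not tested. With the replicate number as a block, edgeR called 0 genes (459 at an unadjusted p of 0.05), Gimap4 was at -0.61 and the median of the members at 0.10. Same-numbered libraries deviated together with a correlation over genes of 0.0203 in 2 pairs, so the numbers are taken as names. With 2 libraries a group, changes of the size of the limma intervals could not have been told from the spread between libraries.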
